A study of Homo sapiens with 21 samples.

Results

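SCD, FASN, ACACA, ACLY, ACSS2, ELOVL5, ELOVL6, FADS1, FADS2 and SREBF1 carry out or control the synthesis, elongation and desaturation of fatty acids. These 10 genes are described here across bulk RNA-seq of BT-549 cells, out of 42339 genes in the count table. They were chosen by name, as rows whose Ensembl identifier maps to these symbols, after SCD had been selected on its counts as the most counted nuclear gene of mammospheres. SCD held that place in all 9 libraries of 3D cells, GO-203-treated 3D cells and vehicle-treated tet-MUC1shRNA mammospheres. It ranked 2 to 4 in the other mammosphere libraries and 5 or 6 in 2D cells. SCD's own level in mammospheres is therefore given as a description, with no test against 2D cells.

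BT-549 is an established human triple-negative breast cancer (TNBC) cell line, wild-type for BRCA1. RNA of 21 cultures was sequenced, 3 in each of 7 groups, from stranded mRNA libraries with paired ends. The groups were 2D cells (parental cells grown attached in medium with serum and insulin), 3D cells (parental mammospheres in MammoCult medium at passage 6, labelled Control) and 3D cells with 0.75 umol/L GO-203, an inhibitor of the MUC1-C protein. The other 4 groups were mammospheres that carried a doxycycline (DOX)-inducible tet-MUC1shRNA (passage 6) or tet-MYCshRNA (passage 8), each with 0.1% DMSO as vehicle or 500 ng/ml DOX. Each target had 1 shRNA sequence in puromycin-selected cells. No DOX-treated culture lacked a MUC1 or MYC shRNA, so the effect of DOX cannot be told apart from that of silencing, and passage cannot be told apart from the line. 2D and 3D cells differed in medium as well as in growth format, and these cannot be told apart either.

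Fatty acid synthesis starts in the cytosol from acetyl-CoA, which ACLY makes from citrate and ACSS2 from acetate. ACACA carboxylates acetyl-CoA to malonyl-CoA, and FASN joins the units into palmitate. ELOVL6 and ELOVL5 lengthen fatty acids, SCD sets the first double bond into saturated chains, and FADS2 and FADS1 add further double bonds to polyunsaturated ones. SREBF1 encodes the SREBP-1 transcription factors, which are released from the endoplasmic reticulum when membrane lipids are low and which activate many of these genes. Fat-making and sterol-making enzymes share this control with the related factor encoded by SREBF2, and tumor cells often make fatty acids even when lipids are available.

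Library totals ran from 38026597 to 99751717 counts, and each of the 10 genes had at least 1098 counts in every library, so the spread between cultures set the precision. No replicate was a copy of another in its group, since the chi-square over its degrees of freedom was 4.37 to 52.8 in the 21 pairs within groups. Levels are CPM (counts relative to library size), scaled by TMM factors over the 21 libraries. The label names epithelial breast as the tissue, but 5 epithelial markers (EPCAM, CDH1, KRT8, KRT18 and KRT19) summed to at most 2.72 CPM, whereas VIM, a mesenchymal filament gene, was at 1080 to 2490 CPM. ESR1 and PGR did not exceed 1.48 CPM and ERBB2 was at 18.4 to 42.0 CPM. In bulk samples, fewer cells of a type and less RNA per cell cannot be told apart.

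The targeted genes were checked first. MUC1 was at 101, 83.2 and 86.6 CPM in vehicle-treated and at 19.7, 21.2 and 23.3 CPM in DOX-treated tet-MUC1shRNA mammospheres (log2 fold change -2.06, SE 0.074, adjusted p = 2.97e-15 in edgeR, as for all adjusted p values below). MYC was at 439, 418 and 386 CPM with vehicle and at 244, 279 and 297 CPM with DOX in the tet-MYCshRNA line (log2 fold change -0.62, SE 0.080, adjusted p = 9.05e-05). MYC was slightly higher on MUC1 silencing (log2 fold change 0.25, adjusted p = 5.01e-05), and MUC1 rose on MYC silencing (log2 fold change 1.25, adjusted p = 5.06e-06). Both targets fell as labelled, MYC by less than MUC1.

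The promoters of 5 of the genes are shown as examples of both kinds of response to MUC1 and MYC silencing. SCD, ELOVL5 and FADS1 moved in opposite directions, as FADS2 and SREBF1 also did, while ACLY and ELOVL6 fell on both. Each sequence runs from 250 bases before to 50 after a RefSeq start site (GRCh38.p14), with CCAAT (the NF-Y motif, ATTGG on the other strand) and CACGTG (the E-box) in capitals. SCD lies at chr10:100346983-100347282 on the plus strand, ELOVL5 at chr6:53348901-53349200, FADS1 at chr11:61816954-61817253, ACLY at chr17:41918902-41919201 and ELOVL6 at chr4:110198566-110198865, the latter 4 on the minus strand.
SCD: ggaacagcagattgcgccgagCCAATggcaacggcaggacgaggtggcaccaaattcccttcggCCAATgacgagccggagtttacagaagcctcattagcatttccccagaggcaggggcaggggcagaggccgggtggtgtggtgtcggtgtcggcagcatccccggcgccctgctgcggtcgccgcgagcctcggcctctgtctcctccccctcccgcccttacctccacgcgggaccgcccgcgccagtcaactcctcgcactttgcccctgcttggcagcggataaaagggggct
ELOVL5: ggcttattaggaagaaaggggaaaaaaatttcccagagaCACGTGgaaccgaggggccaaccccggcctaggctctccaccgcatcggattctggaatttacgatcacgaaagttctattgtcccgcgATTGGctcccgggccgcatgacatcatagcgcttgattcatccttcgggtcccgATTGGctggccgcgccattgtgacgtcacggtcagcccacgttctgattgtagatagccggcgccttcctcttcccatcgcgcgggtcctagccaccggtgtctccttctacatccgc
FADS1: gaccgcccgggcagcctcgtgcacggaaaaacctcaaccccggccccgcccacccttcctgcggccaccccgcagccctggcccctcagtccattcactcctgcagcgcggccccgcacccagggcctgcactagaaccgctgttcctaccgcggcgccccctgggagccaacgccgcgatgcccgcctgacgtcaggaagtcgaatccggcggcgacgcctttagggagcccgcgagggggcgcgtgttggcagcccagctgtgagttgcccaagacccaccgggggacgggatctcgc
ACLY: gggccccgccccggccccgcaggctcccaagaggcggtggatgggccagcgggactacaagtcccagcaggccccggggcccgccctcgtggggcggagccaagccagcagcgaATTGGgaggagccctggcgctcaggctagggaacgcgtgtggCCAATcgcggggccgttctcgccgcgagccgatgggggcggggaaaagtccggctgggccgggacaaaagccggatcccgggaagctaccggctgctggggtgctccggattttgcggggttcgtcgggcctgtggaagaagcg
ELOVL6: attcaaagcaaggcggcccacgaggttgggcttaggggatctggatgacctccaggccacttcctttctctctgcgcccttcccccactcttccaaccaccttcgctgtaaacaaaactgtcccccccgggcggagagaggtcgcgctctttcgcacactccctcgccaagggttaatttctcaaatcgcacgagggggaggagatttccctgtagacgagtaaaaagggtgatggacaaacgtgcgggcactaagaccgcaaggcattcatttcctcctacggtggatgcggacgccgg

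SCD carries CCAAT at -229 and -186 from its start site, ELOVL5 carries its inverse at -122 and -68 and an E-box at -211, and ACLY carries the inverse at -136 and CCAAT at -94. No capital stands in the FADS1 and ELOVL6 sequences. RefSeq promoters were matched for 9 of the 10 genes (14 promoters), not for FASN. CCAAT was present on either strand in 8 of these 14 promoters (57.1%) and in 34.6% of 35116 RefSeq promoters. By gene, 6 of the 9 had it in at least 1 promoter. The promoters are not independent, since those of ACLY overlap and hold the same CCAAT sites. GGGCGG, the GC box, was in 11 of the 14 and in 45.0% of all, and CACGTG was in 1 of the 14, against 7.26% of all. TCACNCCAC, a form of the sterol regulatory element, was in 0 of the 14 windows and in 1.13% of all. Matches of different motifs did not overlap in these windows, and a match or its absence in these windows is a description of the sequence.

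By annotation (GENCODE 44, GRCh38), SCD lies on chromosome 10 from 100347233 to 100364826 and has 1 pseudogene, SCDP1. FADS1 and FADS2 overlap on opposite strands of chromosome 11, between 61792980 and 61867354. The shared bases are 4.79% of the exon bases of FADS1 and 4.64% of those of FADS2, and SREBF1 shares 6.75% of its exon bases with RAI1 on the opposite strand. The library kit keeps the strand, but the strand setting of the counting is not given in the sources used here, so these counts are uncertain to that extent. Counts per gene also do not separate the SREBP-1a and SREBP-1c transcripts of SREBF1.

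**Figure D1:**
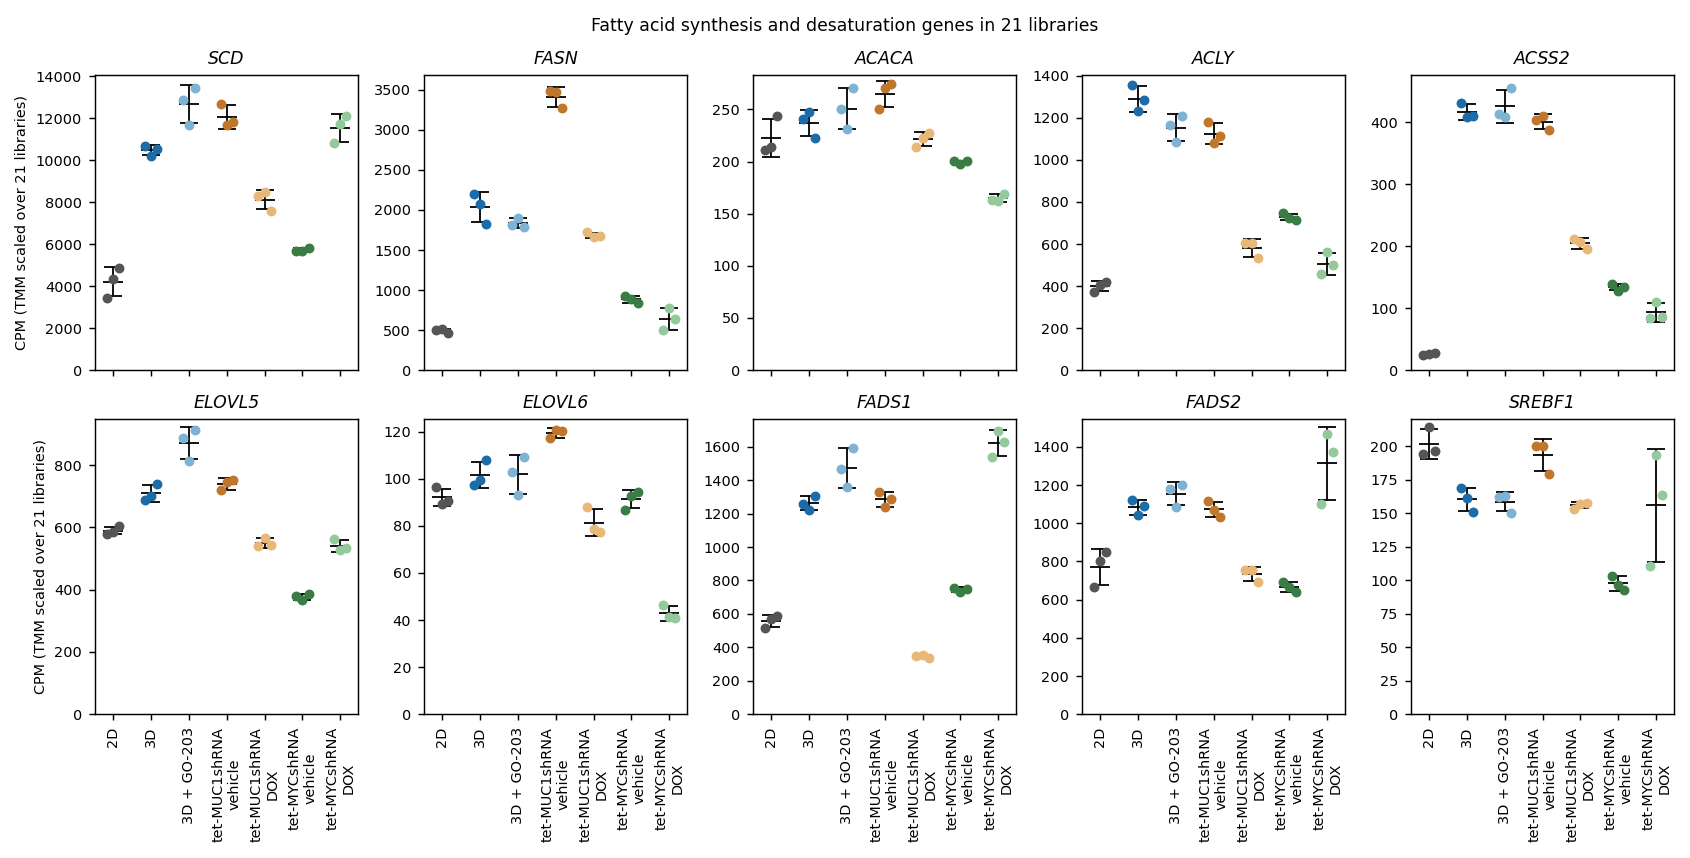
Each panel plots 1 gene in TMM-scaled CPM (y axis, from 0) over the 7 groups (x axis); points are the 3 libraries, and bars give the mean ± SD. SCD sits between 3452 and 4855 CPM in 2D cells and between 10209 and 10673 CPM in 3D cells, and the 3 libraries of DOX-treated tet-MYCshRNA mammospheres spread from 110 to 193 CPM for SREBF1.

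SCD made up a large share of the RNA. It took 0.355% to 0.490% of all counts in 2D cells, 1.01% to 1.04% in 3D cells and 1.21% to 1.30% with GO-203. The 10 genes together took 0.680% to 0.841% of counts in 2D cells and 1.69% to 1.77% in 3D cells. Per kilobase of exon, SCD had the highest level of the 10 genes in every group, from 804 CPM per kb in 2D cells to 2413 CPM per kb with GO-203. ELOVL6 was the lowest in 5 of the 7 groups, with 14.0 CPM per kb in 3D cells. In 2D cells, ACSS2 was the lowest, at 4.92 CPM per kb.

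Mean SCD levels in CPM fell in the order GO-203-treated 3D cells, vehicle-treated tet-MUC1shRNA, DOX-treated tet-MYCshRNA, 3D cells, DOX-treated tet-MUC1shRNA, vehicle-treated tet-MYCshRNA and 2D cells. The first 3 of these groups overlapped with their neighbour in the order. From there on, every group lay below the one before it, and the whole span was 3.00-fold. FADS1 ran over a wider span of 4.68-fold, from DOX-treated tet-MUC1shRNA mammospheres at the bottom to DOX-treated tet-MYCshRNA mammospheres at the top. ACACA had the narrowest span of the 10 genes, 1.61-fold, and its groups overlapped with their neighbours down to the fifth in the order.

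In 3D vs. 2D cells, ACSS2, FASN, ACLY and FADS1 rose most among the 9 genes other than SCD, and ACACA did not pass the test. Of these 9 genes, 7 were higher, 1 was lower and 1 did not pass (adjusted p below 0.1). Over all 19190 genes tested, 32% were higher and 31.7% were lower. With an absolute log2 fold change above 1.5 in addition, as the study required, 3 of the 9 passed (FASN, ACLY and ACSS2), against 16.2% of all genes. The median log2 fold change was 0.49 over the 9 genes and -0.01 over all genes.

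ACSS2, which activates acetate, changed most. It was at 24.4, 25.9 and 27.2 CPM in 2D cells and at 431, 408 and 411 CPM in 3D cells, a 16.1-fold rise (log2 fold change 4.0, SE 0.065, adjusted p = 3.81e-17). FASN was at 499, 514 and 468 CPM in 2D cells and at 2197, 2074 and 1828 CPM in 3D cells (log2 fold change 2.04, SE 0.067, adjusted p = 1.64e-13). ACLY, the citrate-cleaving enzyme, was at 373, 407 and 420 CPM and at 1357, 1234 and 1283 CPM (log2 fold change 1.69, SE 0.058, adjusted p = 3.14e-13). For these 3 genes every 3D library lay far above every 2D library. ACACA, whose product lies between ACLY and FASN in the pathway, was at 211, 214 and 244 CPM in 2D cells and at 241, 248 and 223 CPM in 3D cells. Its groups overlapped and its log2 fold change was 0.08 (95% confidence interval -0.06 to 0.23, adjusted p = 0.3). Without replicate 3 of the 2D cells it was 0.16 and passed.

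Among desaturases and elongases the rises were smaller. FADS1, the delta-5 desaturase, went from 516, 570 and 589 CPM to 1257, 1224 and 1308 CPM (log2 fold change 1.17, SE 0.057, adjusted p = 2.57e-11). FADS2, the delta-6 desaturase, went from 665, 804 and 847 CPM to 1122, 1043 and 1089 CPM (log2 fold change 0.48, SE 0.072, adjusted p = 2.34e-05). The ratio of FADS1 to FADS2 counts within a library accordingly went from 0.727 ± 0.044 to 1.16 ± 0.041 (SD, n = 3 each). ELOVL5 and ELOVL6 rose by a log2 of 0.26 (SE 0.051, adjusted p = 0.000293) and 0.14 (SE 0.061, adjusted p = 0.0631). ELOVL6 no longer passed at an adjusted p below 0.05, with library size alone, with a minimum of 10 counts in every library, with the replicate block, or without replicate 2 or 3 of the 2D cells (0.13 each) or replicate 3 of the 3D cells (0.10). SCD, as a description, was at 3452, 4346 and 4855 CPM in 2D cells and at 10673, 10209 and 10523 CPM in 3D cells, or higher by 1.31 on the log2 scale.

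SREBF1 was the gene that fell. It was at 194, 215 and 196 CPM in 2D cells and at 169, 161 and 151 CPM in 3D cells (log2 fold change -0.34, SE 0.061, adjusted p = 0.000171). All 3 of its 3D libraries lay below all 3 of its 2D libraries, while those of FASN, ACLY and ACSS2 lay above. Of the adipocyte markers, LEP and PLIN1 did not exceed 0.183 and 0.424 CPM in any library. CIDEC, which encodes a lipid droplet protein, was at 0.0665 to 0.120 CPM in 2D cells and 10.4 to 11.7 CPM in 3D cells. The endothelial list summed to at most 0.205 CPM in 2D cells and to 5.95 to 7.29 CPM in 3D cells, nearly all of it PECAM1, with VWF and CDH5 under 0.18 CPM. The 4 mesenchymal markers were VIM, CDH2, ZEB1 and FN1. They summed to 2150 to 2180 CPM in 2D cells and to 8010 to 8490 CPM in 3D cells. The rise came mostly through FN1 (means 451 and 6733 CPM), and ZEB1 also rose (93.8 and 207 CPM). CDH2 went from 442 to 51.3 CPM, and VIM was at 1179 and 1289 CPM. Transcripts of mitochondrial DNA took 5.22% to 5.24% of counts in 2D cells and 2.31% to 2.72% in 3D cells. In sum, the epithelial markers were lower in 3D cells (1.74 to 1.95 and 0.664 to 0.93 CPM). The leukocyte markers were lower too (1.03 to 1.57 and 0.0415 to 0.117 CPM). So were the 3 receptor genes (33.1 to 36.8 and 22.5 to 23.5 CPM, nearly all ERBB2). The epithelial sum fell through CDH1, from a mean of 1.42 CPM to 0, and KRT19 was also at 0 in 3D cells. KRT8 (means 0.176 and 0.506 CPM), KRT18 (0.179 and 0.267 CPM) and EPCAM (0 and 0.0415 CPM) were higher. The part of these markers and transcripts in the result was not tested.

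The vehicle-treated mammospheres of the tet lines gave further sets to hold against the same 2D libraries. FASN, ACLY, ACSS2 and FADS1 were higher in both of them. Against 2D cells, vehicle-treated tet-MYCshRNA mammospheres had log2 fold changes of 0.84 for FASN, 0.87 for ACLY, 2.37 for ACSS2 and 0.42 for FADS1. Other genes had different values in the 2 sets, whose line and passage cannot be told apart. In vehicle-treated tet-MYCshRNA mammospheres ELOVL5 was lower than in 2D cells (log2 fold change -0.64, adjusted p = 3.23e-08), as was FADS2 (-0.21, adjusted p = 0.0301). Vehicle-treated tet-MUC1shRNA mammospheres had 1.51 for SCD (a description) and 2.79 for FASN, and their SREBF1 did not pass the test (-0.06, adjusted p = 0.349). In vehicle-treated tet-MYCshRNA mammospheres SREBF1 was lower than in 2D cells (log2 fold change -1.04, adjusted p = 1.73e-09). ACACA was higher than in 2D cells in the vehicle-treated tet-MUC1shRNA set (0.245, adjusted p = 0.00223) and lower in the vehicle-treated tet-MYCshRNA set (-0.16, adjusted p = 0.034). FASN ranged from 833 to 930 CPM in the vehicle-treated tet-MYCshRNA line and from 3270 to 3492 CPM in the vehicle-treated tet-MUC1shRNA line, with no overlap.

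**Figure D2:**
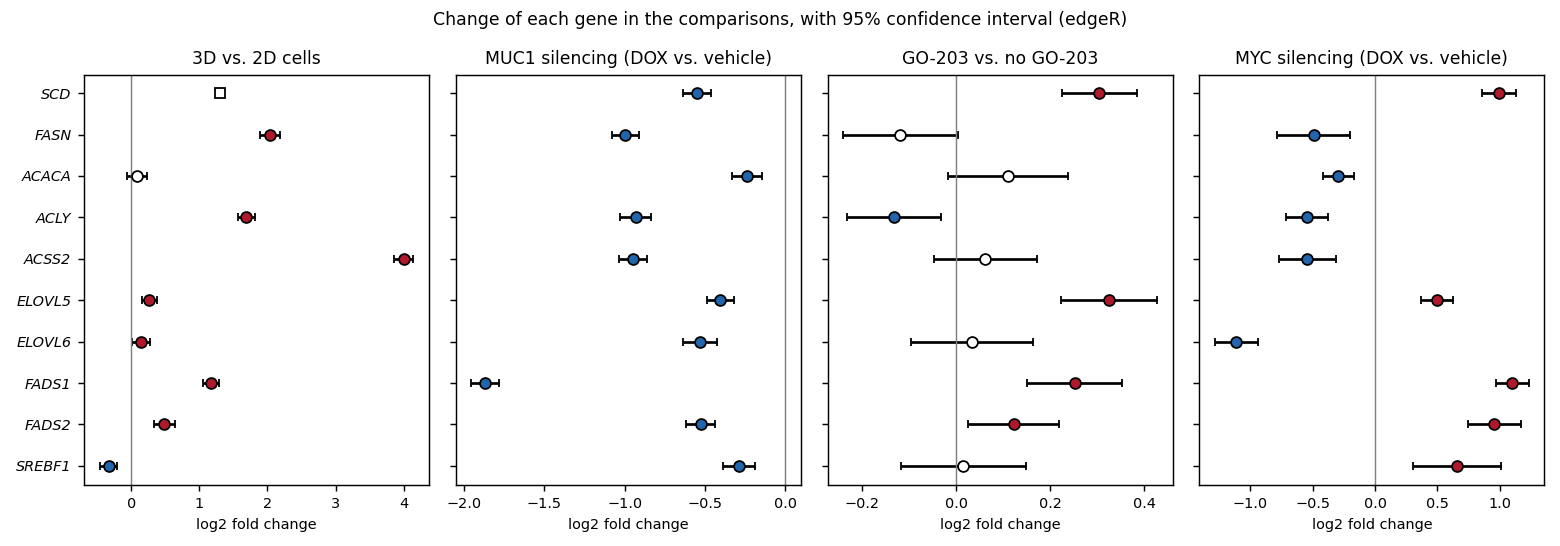
Points give the log2 fold change of each gene (rows) in 4 comparisons (panels, each with its own x axis); bars are 95% confidence intervals from edgeR, filled points passed at an adjusted p below 0.1 (red higher, blue lower), and the open square is SCD in 3D vs. 2D, given without a test. All 10 genes are to the left of 0 on MUC1 silencing, and 5 lie on either side on MYC silencing.

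On MUC1 silencing in 3D cells (DOX vs. vehicle in the tet-MUC1shRNA line), all 10 genes fell. Over all 19220 genes tested, 31.6% were lower and 30.7% were higher. The median log2 fold change was -0.54 over the 10 genes and 0.02 over all genes. No gene of the 10 had overlapping groups, but the share of all genes without overlap was not computed, so this is a description. FADS1 alone also exceeded an absolute log2 fold change of 1.5, which 8.82% of all genes did.

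FADS1 was at 1331, 1241 and 1285 CPM with vehicle and at 347, 357 and 336 CPM with DOX (log2 fold change -1.87, SE 0.041, adjusted p = 2.15e-18). FADS2 fell less, from 1115, 1072 and 1034 CPM to 753, 755 and 693 CPM (log2 fold change -0.53, SE 0.042, adjusted p = 1.03e-09). Their count ratio, FADS1 to FADS2, went from 1.20 ± 0.043 to 0.473 ± 0.012 (SD, n = 3 each) and was thereby lower than in any library of the other 6 groups. SCD was at 12687, 11649 and 11813 CPM with vehicle and at 8281, 8464 and 7586 CPM with DOX (log2 fold change -0.55, SE 0.042, adjusted p = 5.6e-10).

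The synthesis arm fell by about the same amount in 3 of its genes. FASN was at 3492, 3478 and 3270 CPM with vehicle and at 1721, 1664 and 1670 CPM with DOX, a fold change of 0.502 (adjusted p = 1.53e-14). ACLY went from 1179, 1082 and 1114 CPM to 604, 605 and 534 CPM (fold change 0.525, adjusted p = 5.25e-13). ACSS2 went from 404, 411 and 387 CPM to 211, 207 and 195 CPM (fold change 0.519, adjusted p = 9.78e-14). ACACA again changed little, at 251, 270 and 274 CPM and at 214, 223 and 227 CPM (fold change 0.849, adjusted p = 0.000153). ELOVL6 fell by 0.53 and ELOVL5 by 0.40 on the log2 scale. SREBF1 fell by 0.29 (SE 0.048, adjusted p = 3.25e-05).

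Transcripts of mitochondrial DNA took 2.60% to 2.78% of counts in these vehicle-treated libraries and 6.36% to 6.72% in the DOX-treated ones. All 10 genes also passed as lower with these genes left out of the scaling. Scaling by library size alone moved the median of all genes by 0.17 on the log2 scale, and the share of calls that were higher from 49.3% to 64.4%. The median of the 10 genes was then -0.37, and ACACA (log2 fold change -0.07) no longer passed.

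Markers of cell type moved in the same libraries. The 5 epithelial markers summed to 0.0522 to 0.141 CPM with vehicle and to 2.38 to 2.72 CPM with DOX, with KRT19 at 0 in all 6 libraries. The 4 mesenchymal markers summed to 11400 to 12400 CPM and to 8380 to 8730 CPM. Within them the means of FN1 (10330 to 7157 CPM) and ZEB1 (323 to 119 CPM) fell. Those of CDH2, which encodes N-cadherin (11.9 to 74.2 CPM), and VIM (1095 to 1218 CPM) rose. CIDEC was at 8.28 to 8.91 CPM with vehicle and at 14.5 to 16.9 CPM with DOX, and the endothelial list summed to 4.03 to 4.23 and to 2.73 to 3.41 CPM. The receptor genes summed to 23.6 to 27.7 and to 19.9 to 23.4 CPM. Their part in the result was not tested.

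GO-203, at the dose used, left most of the 10 genes near their level in 3D cells. Relative to the same 3D libraries that the comparison with 2D cells used, 4 genes were higher, 1 was lower and 5 did not pass. Over all 18488 genes tested, 11.1% were higher and 12.9% were lower, and the combined threshold was passed by 0 of the 10 genes and 0.757% of all. The median log2 fold change was 0.09 over the 10 genes and 0.02 over all genes.

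SCD was at 10673, 10209 and 10523 CPM without and at 12849, 11662 and 13453 CPM with GO-203 (log2 fold change 0.30, SE 0.038, adjusted p = 4.38e-06). ELOVL5 was at 687, 702 and 740 CPM and at 886, 813 and 912 CPM (log2 fold change 0.32, SE 0.049, adjusted p = 4.62e-05). FADS1 was at 1257, 1224 and 1308 CPM and at 1466, 1357 and 1594 CPM (log2 fold change 0.25, SE 0.048, adjusted p = 0.000656). In these 3 genes every GO-203 library exceeded every 3D library. The calls for FADS2 (log2 fold change 0.12, adjusted p = 0.0748) and ACLY (-0.13, adjusted p = 0.0594) were lost at an adjusted p below 0.05, with all 21 libraries in one fit (0.09 and -0.16) and when single libraries were left out. That of FADS2 was also lost with RLE scaling (0.12) and without a low-count filter (0.11). Without replicate 1 of the 3D cells, for example, ACLY changed by -0.09 and did not pass.

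FASN (log2 fold change -0.12), ACACA (0.11), ACSS2 (0.06), ELOVL6 (0.03) and SREBF1 (0.02) did not pass the test. The 95% confidence intervals were -0.24 to 0.00 for FASN, -0.02 to 0.24 for ACACA, -0.05 to 0.17 for ACSS2, -0.10 to 0.16 for ELOVL6 and -0.12 to 0.15 for SREBF1. FASN passed as lower without replicate 3 of the 3D cells (-0.20) or without replicate 2 of the GO-203-treated cells (-0.16). In the GO-203 libraries CIDEC was at 20.2 to 22.9 CPM and mitochondrial transcripts took 3.34% to 4.40% of counts, both above the 3D libraries. Their part was not tested.

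The effect of GO-203 was set against that of MUC1 silencing by an interaction term over 12 libraries with none in common. The difference passed for all 10 genes, and for 44.9% of 20829 genes. It ran from -0.30 on the log2 scale for SREBF1 (SE 0.081, adjusted p = 0.00433) to -2.12 for FADS1 (SE 0.066, adjusted p = 1.23e-18). For SCD it was -0.85 (SE 0.064, adjusted p = 3.21e-11) and for FASN -0.87 (SE 0.077, adjusted p = 6.72e-10). Each value is the change on silencing minus that on GO-203, and all 10 were negative. GO-203 was given to parental mammospheres, whereas silencing was done with DOX in a puromycin-selected tet line. Line, DOX and treatment therefore differ together here and cannot be told apart. Without either treatment, mean MUC1 was 207 CPM in 3D cells and 90.4 CPM in vehicle-treated tet-MUC1shRNA mammospheres. Mean MYC was 581 and 245 CPM, in the same order. The GO-203 dose was also below that of the paper's immunoblots. With library size alone, the share of passing differences that were above 0 went from 46.4% to 61.6% and SREBF1 (-0.14) did not pass, nor did SREBF1 with all 21 libraries in one fit (-0.29).

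MYC silencing split the 10 genes into 5 that rose and 5 that fell. SCD, FADS1, FADS2, ELOVL5 and SREBF1 rose, and FASN, ACACA, ACLY, ACSS2 and ELOVL6 fell. Over all 19951 genes tested, 30.3% were higher and 28.1% were lower, and the combined threshold was passed by 0 of the 10 genes and 10.5% of all. The median log2 fold change was 0.10 over the 10 genes and 0.01 over all genes. The 3 desaturases were among the genes that rose, and the elongases moved in opposite directions.

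SCD was at 5652, 5649 and 5836 CPM with vehicle and at 10803, 11710 and 12114 CPM with DOX (log2 fold change 0.99, SE 0.062, adjusted p = 5.16e-07). FADS1 was at 758, 730 and 751 CPM and at 1540, 1696 and 1628 CPM (log2 fold change 1.10, SE 0.059, adjusted p = 2.07e-07). FADS2 was at 694, 668 and 643 CPM and at 1100, 1467 and 1376 CPM (log2 fold change 0.96, SE 0.095, adjusted p = 1.4e-05). All 3 desaturases thus rose, with fold changes of 1.94 to 2.14 and no overlap between groups. ELOVL5 rose from 379, 368 and 387 CPM to 562, 527 and 533 CPM (log2 fold change 0.50, SE 0.058, adjusted p = 4.26e-05).

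ELOVL6 moved the other way from ELOVL5, from 86.9, 92.7 and 94.5 CPM to 46.6, 41.3 and 40.9 CPM (log2 fold change -1.11, SE 0.077, adjusted p = 1.04e-06). The ratio of ELOVL5 to ELOVL6 counts went from 4.14 ± 0.199 to 12.6 ± 0.500 (SD, n = 3 each), above every library of the other groups. FASN went from 930, 885 and 833 CPM to 496, 779 and 638 CPM (log2 fold change -0.49, SE 0.131, adjusted p = 0.00974). The ratio of SCD to FASN counts went from 6.49 ± 0.471 to 18.6 ± 3.40 (SD, n = 3 each), also above every library of the other groups. ACLY fell from 746, 722 and 716 CPM to 456, 562 and 500 CPM (log2 fold change -0.54, SE 0.076, adjusted p = 0.000157). ACSS2 fell by 0.54 (SE 0.102, adjusted p = 0.00116) and ACACA by 0.29 on the log2 scale (SE 0.055, adjusted p = 0.0011).

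SREBF1 was at 103, 96.5 and 92.9 CPM with vehicle and at 110, 193 and 164 CPM with DOX (log2 fold change 0.65, SE 0.159, adjusted p = 0.00565). The DOX-treated libraries spread widely for this gene, and replicate 1 was barely above the vehicle-treated ones. The same library was the lowest of its group for FASN, ACLY, ACSS2, SCD, FADS1 and FADS2. With single libraries left out, the log2 fold change of SREBF1 ran from 0.47 to 0.85 and that of FASN from -0.66 to -0.34, and all 10 calls held. CIDEC was at 0.253 to 0.522 CPM with vehicle and 5.67 to 10.5 CPM with DOX, and the mesenchymal markers summed to 7800 to 8080 and to 14000 to 15700 CPM, through FN1 (means 5177 and 12471 CPM), with VIM at 2464 and 2212, ZEB1 at 249 and 282 and CDH2 at 22.1 and 26.0 CPM. The endothelial list summed to 6.42 to 7.16 and to 8.66 to 10.1 CPM and the receptor genes to 18.7 to 22.7 and to 28.1 to 43.5 CPM, and mitochondrial transcripts took 3.37% to 4.08% and 3.96% to 5.07% of counts. Their part was not tested.

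**Figure D3:**
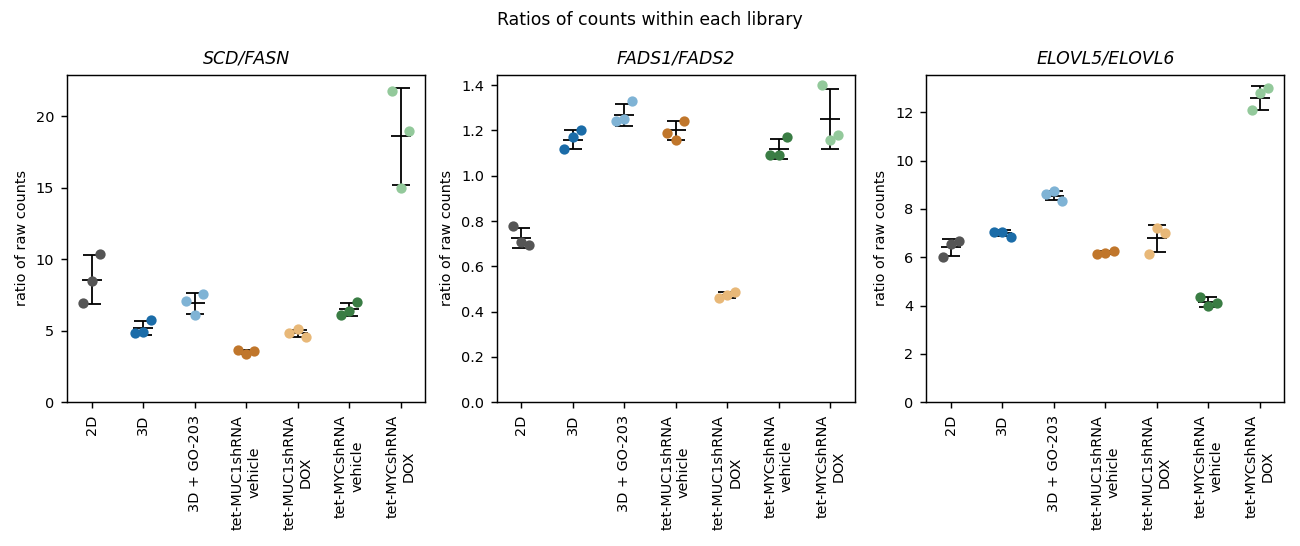
Ratios of raw counts of 2 genes within the same library (y axis, from 0) over the 7 groups (x axis); points are the 3 libraries and bars the mean ± SD, and no scaling between libraries enters. DOX-treated tet-MYCshRNA mammospheres have the highest SCD to FASN ratios (15.0 to 21.8) and ELOVL5 to ELOVL6 ratios (12.1 to 13), and DOX-treated tet-MUC1shRNA mammospheres have the lowest FADS1 to FADS2 ratios (0.460 to 0.485).

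Whether MUC1 and MYC silencing acted differently on these genes was tested by an interaction term over the 12 libraries of the tet lines. The difference passed for 9 of the 10 genes, and for 52.9% of 21585 genes. It was largest for FADS1, whose change on MUC1 silencing was lower by 2.98 on the log2 scale (SE 0.073, adjusted p = 3.72e-15). SCD differed by -1.56 (SE 0.078, adjusted p = 2.43e-11), FADS2 by -1.50 (SE 0.113, adjusted p = 4.98e-09), SREBF1 by -0.96 (SE 0.182, adjusted p = 0.000271) and ELOVL5 by -0.92 (SE 0.067, adjusted p = 3.09e-09). These 5 genes fell on MUC1 silencing and rose on MYC silencing, each change passing its own test, as did 1952 of 18198 genes (10.7%). None of the 10 moved the reverse way, which 1476 of the 18198 genes did. At that share, 0 of 10 is not read as a trait of these genes.

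ACLY, ACSS2 and FASN fell on both, and more on MUC1 silencing, with differences of -0.40 to -0.52. ELOVL6 fell more on MYC silencing (difference 0.57, SE 0.093, adjusted p = 5.88e-05). ACACA fell by 0.24 on MUC1 silencing and by 0.29 on MYC silencing, a difference of 0.04 (95% confidence interval -0.10 to 0.19, adjusted p = 0.651). With library size alone, the share of passing differences that were above 0 went from 49.1% to 61.2%. Under that scaling ACACA differed by 0.25 and passed, and ACSS2 (-0.21) did not.

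**Figure D4:**
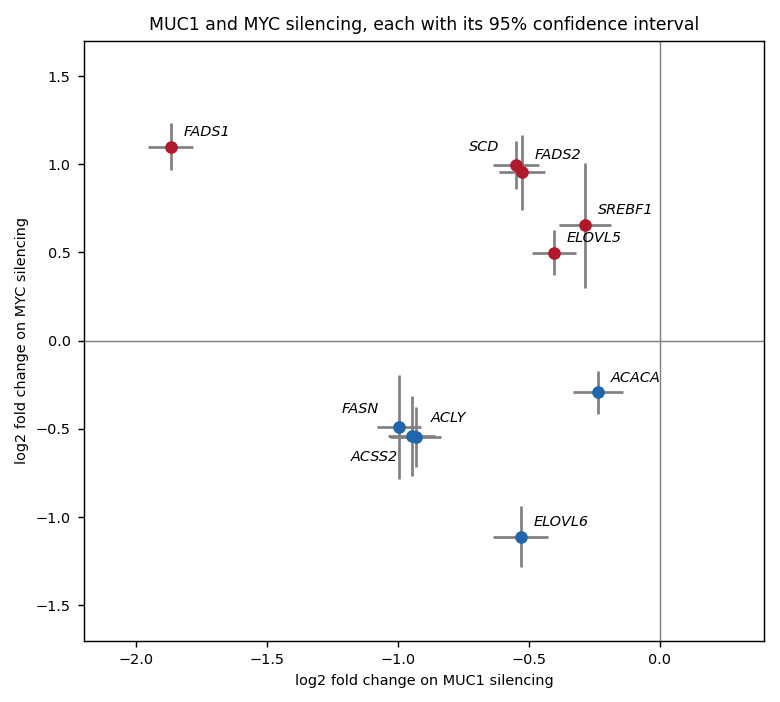
Each point is 1 of the 10 genes, with its log2 fold change on MUC1 silencing (x axis) and on MYC silencing (y axis) and 95% confidence intervals from edgeR; red genes rose and blue genes fell on MYC silencing. All points lie left of 0, and FADS1 stands alone at -1.87 on the x axis and 1.10 on the y axis.

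The genes around the 10 were described through 5 lists. Their counts stand beside the shares of all genes tested. These were 32% higher and 31.7% lower in 3D vs. 2D cells, and 30.7% and 31.6% on MUC1 silencing. They were 11.1% and 12.9% with GO-203, and 30.3% and 28.1% on MYC silencing. Sterol synthesis and uptake, which shares its SREBP control with fatty acid synthesis, moved in 1 direction throughout on MUC1 silencing and between 2D and 3D cells and was mixed in the other comparisons. All 12 of its genes were higher in 3D vs. 2D cells (median log2 fold change 1.09, all genes -0.01), led by CYP51A1 (1.88, adjusted p = 6.95e-08) and MVD (1.55, adjusted p = 4.88e-12), both enzymes of cholesterol synthesis. All 12 were lower on MUC1 silencing (median -0.62, all genes 0.02), led by HMGCS1, which makes HMG-CoA (-1.57, adjusted p = 4.49e-17), and IDI1 (-1.14, adjusted p = 2.79e-15). With GO-203, 1 was higher (IDI1, 0.22, adjusted p = 0.0178) and 2 were lower, with a median of -0.02. On MYC silencing 2 were higher and 6 were lower (median -0.24), with HMGCS1 at -1.16 (adjusted p = 6.66e-07) and LSS at 0.66 (adjusted p = 0.00205).

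Of 11 genes that control SREBP and lipogenic transcription, 10 were higher and 1 was lower in 3D vs. 2D cells (median log2 fold change 0.69). NR1H3, which encodes the sterol-sensing receptor LXR-alpha, was at 0.954, 0.730 and 0.410 CPM in 2D cells and at 11.2, 8.71 and 9.72 CPM in 3D cells (log2 fold change 3.84, adjusted p = 2.23e-10). MLXIPL, which encodes the carbohydrate-responsive factor ChREBP, had 0 counts in the 2D libraries and 10 to 26 in the 3D libraries, at least 5.57-fold higher against a floor of 3 counts per library. The median was 0.69 with MLXIPL at that bound too. On MUC1 silencing, 6 of the 10 genes tested were lower and 3 were higher (median -0.18). The falls were led by INSIG2 and INSIG1, whose products hold SREBP in the endoplasmic reticulum and of which INSIG1 is itself an SREBP target. INSIG1 was at 2142, 1932 and 1903 CPM with vehicle and at 529, 534 and 493 CPM with DOX (log2 fold change -1.92, adjusted p = 1.01e-17), and INSIG2 fell by 2.14 (adjusted p = 6.34e-15). With GO-203, 3 of 11 were lower and 0 were higher (median -0.08), led by MLX (-0.28, adjusted p = 0.00386) and INSIG2 (-0.27, adjusted p = 0.0039). On MYC silencing 4 of 10 were higher and 4 were lower (median 0.09), with NR1H3 at 1.24 (adjusted p = 0.000141) and PPARGC1B, a coactivator, at -0.97 (adjusted p = 3.38e-06).

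PLIN2, which coats lipid droplets, belonged to the list on acyl-CoA activation and glycerolipid synthesis. It was at 66.6, 70.6 and 68.6 CPM in 2D cells and at 1455, 1380 and 1525 CPM in 3D cells (log2 fold change 4.40, SE 0.060, adjusted p = 7.91e-18). On MUC1 silencing it fell by 1.83 (adjusted p = 1.4e-15) and with GO-203 by 0.68 (adjusted p = 1.25e-08), to 900, 786 and 982 CPM. On MYC silencing it fell by 0.97 (adjusted p = 1.75e-06). The other leading genes were DGAT2, the last enzyme of triglyceride synthesis (-4.16 in 3D vs. 2D cells, adjusted p = 2.61e-12), GPAT3 (3.51 on MUC1 silencing, adjusted p = 3.34e-12, and -1.47 on MYC silencing, adjusted p = 5.43e-05), ACSL1 (0.36 with GO-203, adjusted p = 4.62e-05) and ACSL5 (1.75 on MYC silencing, adjusted p = 0.00115). DGAT2, GPAT3 and ACSL5 did not exceed 12.5 CPM in any library. Of the 17 genes tested in each comparison, 8 were higher and 4 lower in 3D vs. 2D cells (median 0.20) and 7 and 8 on MUC1 silencing (-0.04). With GO-203 these counts were 1 and 4 (-0.08), and on MYC silencing 10 and 6 (0.36). Over all genes, the shares were 32% and 31.7%, 30.7% and 31.6%, 11.1% and 12.9%, and 30.3% and 28.1%, in the same order.

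Enzymes of synthesis, elongation and desaturation outside the 10 showed no common direction. Over all genes tested, 32% were higher and 31.7% lower in 3D vs. 2D cells, and 30.7% and 31.6% on MUC1 silencing. With GO-203 these shares were 11.1% and 12.9%, and on MYC silencing 30.3% and 28.1%. In 3D vs. 2D cells 8 of 20 were higher and 6 lower (median log2 fold change 0.15), with ELOVL2 at -4.16 (adjusted p = 2.09e-13) and OLAH at 3.25 (adjusted p = 1.72e-05). OLAH had 2 to 7 counts in the 2D libraries and 34 to 49 in the 3D libraries (means 0.0779 and 0.781 CPM), so the size of its change is uncertain. On MUC1 silencing 10 of 21 were higher and 6 lower (median 0.08), with ELOVL2 at 1.24 (adjusted p = 1.98e-05) and OLAH at -1.24 (adjusted p = 5.61e-05). ELOVL2, an elongase of polyunsaturated chains, thus moved against FADS1 in both comparisons, from 16.3 to 19.6 CPM in 2D cells to 0.937 to 1.04 CPM in 3D cells. With GO-203 3 of 20 were higher and 4 lower (median 0.04), with ELOVL4 at 0.70 (adjusted p = 0.0207) and HACD1 at 0.51 (adjusted p = 3.43e-05). On MYC silencing 5 of 20 were higher and 8 lower (median -0.06), with ACACB, the mitochondrial counterpart of ACACA, at 1.60 (adjusted p = 0.000109) and ELOVL4 at 1.55 (adjusted p = 5.37e-06).

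Of 6 genes that supply citrate, NADPH or set malonyl-CoA, 2 were higher and 3 lower in 3D vs. 2D cells (median log2 fold change -0.40). ME1, the cytosolic malic enzyme, fell (-1.01, adjusted p = 2.45e-09) and SLC25A1, the mitochondrial citrate carrier, rose (0.94, adjusted p = 9.84e-08). On MUC1 silencing 1 was higher and 3 were lower (median -0.21), with IDH1 at -0.88 (adjusted p = 4.84e-12) and SLC25A1 at -0.67 (adjusted p = 1.9e-09). With GO-203 none of the 6 passed (median -0.01), and on MYC silencing 3 were higher (median 0.17), among them MLYCD, which degrades malonyl-CoA (1.61, adjusted p = 2.69e-05), and SLC25A1 (0.44, adjusted p = 0.024).

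**Figure D5:**
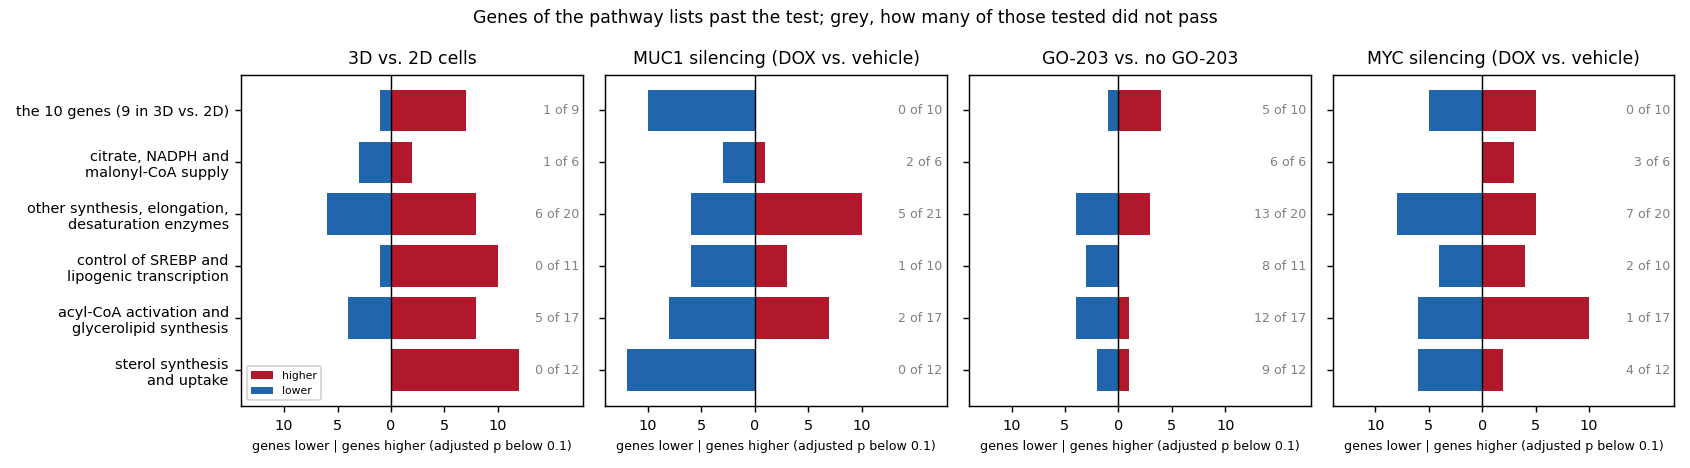
Bars count the genes of each list (rows) that were lower (blue, to the left) or higher (red, to the right) at an adjusted p below 0.1 in each of 4 comparisons (panels); grey text gives how many of those tested did not pass. The sterol list reaches 12 of 12 higher in 3D vs. 2D cells and 12 of 12 lower on MUC1 silencing, where the 10 genes described here are also all lower.

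The genes whose pattern was most like that of SCD were sought over the 21 libraries, in log2 CPM, among 8848 genes with a mean of at least 10 CPM. Since the libraries fall into 7 groups that share their treatments, Pearson's r is a description. The closest were IGFBP4 (r = 0.98), S100A4 (0.98), CD248 (0.96), FOXO3 (0.96) and PRDX6 (0.96). IGFBP4, which encodes a secreted binder of insulin-like growth factors, was at 42.9 CPM in 2D cells, 184 in 3D cells, 253 and 111 in vehicle- and DOX-treated tet-MUC1shRNA mammospheres, and 67.8 and 231 in vehicle- and DOX-treated tet-MYCshRNA mammospheres. Among the 10 genes, FADS2 was closest to SCD (r = 0.82, rank 172), followed by ACSS2 (0.79, rank 272), FADS1 (0.70), ACLY (0.66), FASN (0.65) and ELOVL5 (0.61). ACACA (0.20), SREBF1 (0.14) and ELOVL6 (-0.08) had little likeness to it.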

How the data were processed

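Total RNA of triplicate BT-549 cultures (7 groups, 21 libraries) was sequenced as TruSeq stranded, paired-end mRNA. Reads were mapped by the authors to GRCh38 using STAR (2.7.9a in the study's methods, 2.7.3a in the submitters' processing notes), and they deposited raw counts per gene from featureCounts of Subread, without normalization. The annotation release, and whether strand and multiply mapped reads were considered, are not given in the sources used here. Genes with no value in a block of libraries were read as 0, and all 10 genes had values throughout.

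From the counts, each comparison was fitted on its own 6 libraries, and each interaction on 12, in R 4.3.3 with edgeR 4.0.16 (filterByExpr, TMM, quasi-likelihood test, Benjamini-Hochberg over all genes tested). A gene passed at an adjusted p below 0.1, and a second count also required an absolute log2 change above 1.5. The p-values measure the spread between cultures, which may be technical. Steps were tested on simulated data.

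All 10 genes were named, with MUC1, MYC, the 5 genes most like SCD, and up to 2 leading genes per list and comparison. The members and lists were chosen with earlier results of these data known. CIDEC, VIM, CDH2 and the other markers named come from the marker lists, and DGAT1 was named beside DGAT2. The leukocyte list summed to at most 1.57 CPM, and ADIPOQ was not used here.

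Alternatives were DESeq2 1.42.0, RLE factors, library size alone, scaling without mitochondrial genes, no filter, at least 10 counts in every library, one fit of all 21 libraries, the replicate block, an adjusted p below 0.05, vehicle-treated mammospheres in place of 3D cells, and leaving out each library.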

Additional observations from a re-analysis of the deposited data

Results flagged for a closer look

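The effect of DOX differed between the tet-MUC1shRNA and tet-MYCshRNA lines for 9 of the 10 genes, by a test of the difference itself (interaction term over 12 libraries, adjusted p below 0.1), as it did for 52.9% of all genes tested. The values are the log2 fold change in the tet-MUC1shRNA line minus that in the tet-MYCshRNA line. They were -2.98 for FADS1, -1.56 for SCD, -1.50 for FADS2, -0.96 for SREBF1 and -0.92 for ELOVL5, which fell in one line and rose in the other. They were -0.52 for FASN, -0.42 for ACSS2, -0.40 for ACLY and 0.57 for ELOVL6, which fell in both. Line, shRNA and passage differ together between these libraries and cannot be told apart.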

How the results depend on the processing

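Of 979 recomputed changes of single genes, 936 kept their direction and their side of the threshold, 26 no longer passed, 5 newly passed, 10 turned in sign and 2 moved, in 15 of 60 gene changes. The cause was not tested. With vehicle-treated tet-MYCshRNA mammospheres in place of 3D cells, the change against 2D cells turned to -0.16 for ACACA, -0.64 for ELOVL5, -0.01 for ELOVL6 (-0.00779) and -0.21 for FADS2. With all 21 libraries in one fit, SREBF1 turned to -0.02 under GO-203 (-0.0165), and the count of genes lower under GO-203 went from 1 to 0, as it did at an adjusted p below 0.05. Leaving out single libraries gave 0 to 2 genes lower under GO-203, -0.03 to 0.06 for SREBF1 (-0.0345 to 0.062) and -0.01 to 0.08 for ELOVL6 (-0.0107 to 0.0794) under GO-203. It gave -0.000349 to 0.0638 for the difference of ACACA between MUC1 and MYC silencing. The median change in 3D vs. 2D cells was 0.39 to 0.56 over these fits (0.391 to 0.56), lowest without 2D replicate 1 and highest without 2D replicate 3. With library size alone the medians were -0.37 on MUC1 silencing (-0.373) and 0.43 against 2D cells (0.426), and 2 genes rather than 1 had a higher change on MUC1 than on MYC silencing.

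Same-numbered cultures showed little common deviation. The mean correlation of their deviations was -0.02 for 3D and 2D cells, 0.02 on MUC1 silencing, 0.04 with GO-203 and -0.08 on MYC silencing. With GO-203 each same-numbered pair was slightly positive (0.0389 to 0.0427). Such small values with 3 cultures per group cannot decide whether the numbers pair the samples, and the main fits treat them as unpaired. With the replicate number as a block, 11802 rather than 12223 genes passed between 3D and 2D cells, 11922 rather than 11962 on MUC1 silencing, 4973 rather than 4452 with GO-203 and 10478 rather than 11665 on MYC silencing. Of the calls for the 10 genes, the block changed that of ELOVL6 in 3D vs. 2D cells.

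With at least 1098 counts per gene and library, depth did not limit the 10 genes. With 3 cultures per group, the spread between cultures did.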
